A study of Homo sapiens with 24 samples.

Results

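The baseline distribution of H4K20me3 was described from 7 CUT&RUN libraries of HN-SCC-151, an HPV-negative cell line from a squamous carcinoma of head and neck, with a genotype labelled wild type. They are all the control libraries for this mark among the 14 H4K20me3 libraries and 24 samples of the series: 3 from cells given DMSO, the solvent control of an inhibitor, and 4 from cells transfected with a control siRNA (siNC), each for 6 days and each made from 500000 cells. No library of treated cells was used. The genome was divided into 1 kb bins, and a bin was common when the authors' broad peaks covered it in all 7 libraries and uncovered when they covered it in none. Of 2964403 bins on chromosomes 1 to 22 and X, 86511 were common and 2684338 were uncovered.

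In CUT&RUN an antibody brings a nuclease to a chromatin mark, and the DNA cut free is sequenced. Trimethylation of lysine 20 of histone H4 is a mark of constitutive heterochromatin. It is laid down mainly by KMT5B and KMT5C (SUV420H1 and SUV420H2), which are recruited by HP1 proteins bound to trimethylated lysine 9 of histone H3. It is best known from repeats near centromeres and telomeres, from silenced retroelements and from clusters of zinc finger genes. A peak list says where signal passed a threshold in a population of cells. It does not say in what share of the cells or how strongly a place was marked, and no sequencing depth comes with these lists.

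The promoters of 5 genes show how the content of CG dinucleotides ranged among covered and uncovered promoters. They are shown as single cases and support no comparison. Each line gives the 250 bases before the annotated start, 5′ to 3′ on the gene's strand, from RefSeq on GRCh38.p14, with every CG in capitals. ZNF267 at chr16:31873557-31873806 (plus strand) is the zinc finger gene with the longest common stretch among those whose promoter was uncovered. ZNF718 at chr4:127871-128120 (plus strand), whose listed start lies inside the gene's full span, had a promoter covered in all 7 libraries, as had CLDN16 at chr3:190290111-190290360 (plus strand) and SHOC1 at chr9:111794938-111795187 (minus strand). CLDN16 and SHOC1 have the longest common stretches among those other coding genes, on the chromosomes sequences were taken from, whose promoter was covered and was not CpG-rich by the limits given below, so their CG content was part of the choice. KMT5B at chr11:68213649-68213898 (minus strand) encodes an H4K20 methyltransferase and had no peak in any library.
ZNF267: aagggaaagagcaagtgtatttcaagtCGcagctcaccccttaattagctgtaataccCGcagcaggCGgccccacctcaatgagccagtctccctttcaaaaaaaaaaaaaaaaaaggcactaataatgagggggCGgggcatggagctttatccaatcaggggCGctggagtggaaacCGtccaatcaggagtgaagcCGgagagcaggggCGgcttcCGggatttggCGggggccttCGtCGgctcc
ZNF718: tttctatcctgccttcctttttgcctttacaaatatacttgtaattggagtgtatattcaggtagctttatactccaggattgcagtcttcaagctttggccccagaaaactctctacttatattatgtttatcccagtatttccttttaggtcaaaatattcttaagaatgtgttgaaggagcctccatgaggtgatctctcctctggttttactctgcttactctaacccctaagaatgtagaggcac
CLDN16: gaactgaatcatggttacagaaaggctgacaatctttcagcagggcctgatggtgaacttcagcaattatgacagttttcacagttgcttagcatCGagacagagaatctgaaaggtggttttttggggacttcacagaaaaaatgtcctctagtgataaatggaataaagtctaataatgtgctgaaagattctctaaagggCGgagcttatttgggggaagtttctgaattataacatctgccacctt
SHOC1: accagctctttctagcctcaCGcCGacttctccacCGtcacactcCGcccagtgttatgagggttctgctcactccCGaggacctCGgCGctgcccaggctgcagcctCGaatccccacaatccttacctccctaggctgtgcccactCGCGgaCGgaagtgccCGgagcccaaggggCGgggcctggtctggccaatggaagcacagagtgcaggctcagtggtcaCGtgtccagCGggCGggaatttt
KMT5B: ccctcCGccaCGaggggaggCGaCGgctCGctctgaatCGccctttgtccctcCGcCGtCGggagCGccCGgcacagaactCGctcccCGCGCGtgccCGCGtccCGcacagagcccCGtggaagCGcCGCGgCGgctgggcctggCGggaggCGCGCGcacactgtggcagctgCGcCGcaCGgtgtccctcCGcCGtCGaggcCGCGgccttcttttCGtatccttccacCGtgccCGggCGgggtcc
The printed bases hold 12 CG in ZNF267 and 39 in KMT5B, which were both uncovered. They hold 2 in CLDN16, 0 in ZNF718 and 16 in SHOC1, which were covered. The covered promoter of SHOC1 thus holds more CG than the uncovered one of ZNF267. ZNF718 was shown because it has the longest common stretch of the zinc finger genes with a covered promoter, and it is unlike most of them, of which 81.2% were CpG-rich.

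H4K20me3 peaks covered 4.89 to 6.51% of the bins in single libraries, and the libraries of a group resembled each other more than those of the other group. The covered length was 153, 146 and 145 Mb in DMSO replicates 1 to 3 and 183, 191, 193 and 183 Mb in siNC replicates 1 to 4. All siNC libraries lay above all DMSO libraries. The siNC libraries held 14270.2 ± 420.2 peaks (SD, n = 4) and the DMSO libraries 8739 ± 269 (SD, n = 3). The difference of 5532 peaks had an exact two-sided permutation p of 0.0286, the smallest that 3 against 4 libraries allow, and an adjusted p of 0.0381 over 4 measures (Benjamini-Hochberg). Covered length was higher in siNC by 0.34 on the log2 scale, with the same exact p. Wide peaks went the other way: peaks of 50 kb or more numbered 458, 417 and 427 in DMSO and 294, 296, 305 and 288 in siNC, a difference of -138 with the same exact p. They held 29.7 to 32.3% of the covered length in DMSO and 13.7 to 14.1% in siNC. The median peak width was 9 or 10 kb in every library, and its difference of -0.667 kb had an exact permutation p of 0.143. The Jaccard index, the shared covered length over the joint covered length, averaged 0.750 among DMSO libraries, 0.772 among siNC libraries and 0.475 between the groups. The IgG library used for peak calling and the transfection also differed between the groups, so these cannot be told apart. The design names 3 dishes per condition while 4 siNC libraries exist, so some may share a dish, and the p-values measure only the spread between these libraries.

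**Figure D1:**
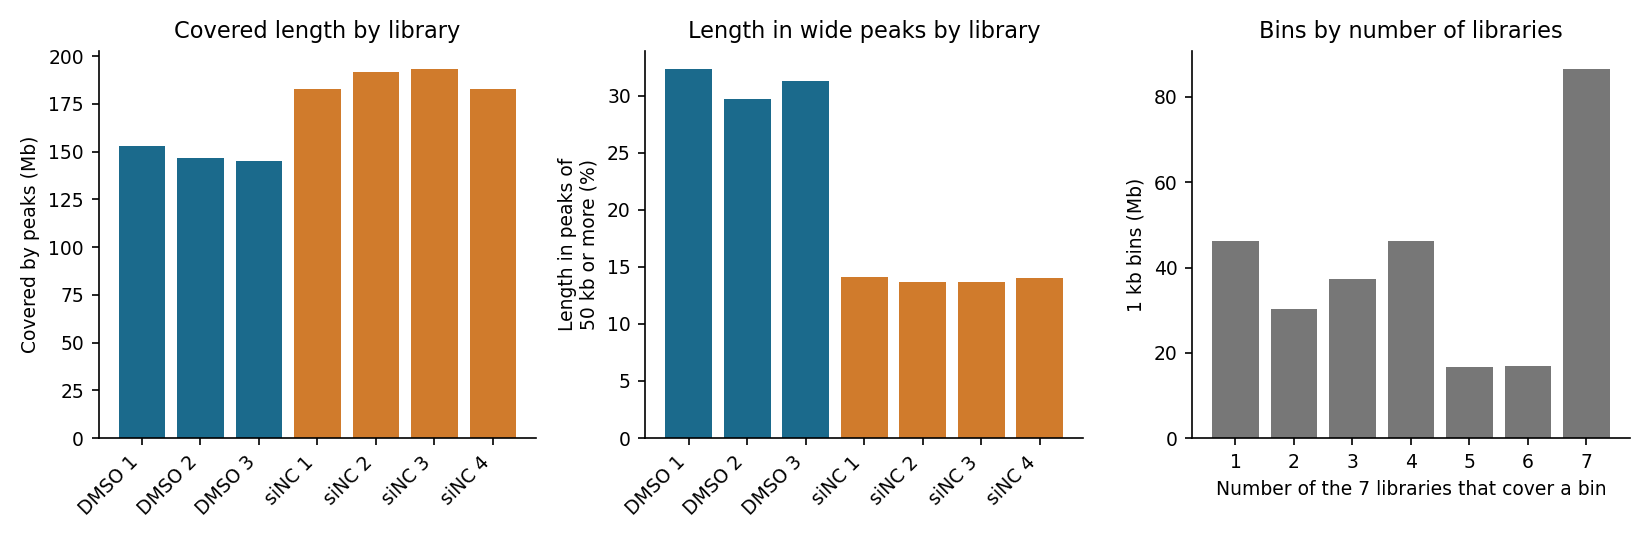
Covered length in Mb (left) and percent of that length in peaks of 50 kb or more (middle) for the 3 DMSO (blue) and 4 siNC (orange) libraries, and length of genome in 1 kb bins by the number of libraries covering them (right). The siNC libraries cover 183 to 193 Mb against 145 to 153 Mb in DMSO, while 86.5 Mb are covered in all 7.

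Common bins made up 86.5 Mb, or 2.92% of the genome counted and 30.9% of the 280.1 Mb covered in any library. Uncovered bins made up 90.6%. Just outside the rule, 16967 bins were covered in 6 libraries, far fewer than the 86511 covered in 7. Bins in exactly 4 libraries (46214) and exactly 3 (37259) were also frequent. Among them, 37.6 Mb were covered in all siNC and no DMSO library and 17.3 Mb in all DMSO and no siNC library. These group-specific bins lay in short stretches with medians of 4 kb and 3 kb. Chromosome 14 held 9.62% of the siNC-specific bins but 2.25% of the common bins. Its coverage was 4.06 ± 0.0620% in DMSO (SD, n = 3) and 11.5 ± 1.44% in siNC (SD, n = 4).

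The wider a peak, the larger the part of it that all libraries shared. Of the bases in peaks of 5 kb, the narrowest width in the lists, 7.53% were common (mean of 7 libraries). The share was 23.8% for 6 to 9 kb, 53.0% for 10 to 19 kb, 64.7% for 20 to 49 kb and 75.8% for 50 kb or more. A wider peak has more bases that can fall in any other peak, and the shares come from the same bins as the rule, so they describe the lists only.

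The common bins formed 6301 stretches with a median width of 9 kb and quartiles of 7 and 14 kb. Stretches of 50 kb or more numbered 168 and held 16.9% of the common length, and 33 reached 100 kb. About as many stretches lay far from genes as touched a gene: 30.5% overlapped a coding gene and 31.2% (1964) lay more than 100 kb from any. Stretches of 50 kb or more had 12.0% of their length in coding genes, against 27.6% for stretches of 5 to 9 kb. Of the stretches of 50 kb or more, 11.3% touched a C2H2 zinc finger gene or its 2 kb flanks, against 3.32% of those of 5 to 9 kb. Any coding gene was touched by 23.2% and 30.3% of them. The median widths were 70 and 7 kb, and a wider stretch has more chances to touch a gene, so these shares show no preference. The median gap from a common stretch to the nearest other one, on either side, was 24 kb. Joined across gaps of up to 100 kb they made 2759 blocks, of which 57.6% held a single stretch and 74 held 10 or more.

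The widest common stretch, chr7:56399001-56746000, was 347 kb wide and held no coding gene, 8 lncRNA genes and 16 pseudogenes. It lay within single peaks of 347 to 408 kb in the 7 libraries. The next, chrX:13192001-13496000, spanned 304 kb around ATXN3L, an intronless copy of the deubiquitinase gene ATXN3. DMSO libraries had peaks of 572 to 583 kb over it, and siNC libraries peaks of 304, 304, 451 and 304 kb. A stretch of 283 kb on chromosome 8 (127166001 to 127449000) held the coding gene POU5F1B and the lncRNA genes CASC19, CCAT1, CASC21, CASC8 and CCAT2. A stretch of 267 kb at chr7:40998001-41265000 reached into SUGCT, which encodes a mitochondrial CoA transferase. The fifth, chr12:132980001-133216000, was 236 kb wide and held 6 coding genes, all of them zinc finger genes: ZNF26, ZNF84, ZNF140, ZNF891, ZNF10 and ZNF268. That DMSO and siNC peaks overlapped in these 5 places follows from the rule that chose them. The DMSO peaks reached beyond the common stretch in all but 1 case. That exception was DMSO replicate 2 at the widest stretch, whose peak was as wide as the stretch. At that stretch the siNC peaks, of 406 to 408 kb, were wider than the DMSO peaks of 347 to 404 kb. A common stretch cannot be wider than the peaks that form it, so reaching beyond it is no trait of DMSO.

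Among joined blocks, those with most common length were of different kinds. The block chr7:56399001-57818000 spanned 1419 kb, of which 1081 kb (76.2%) were common, and 2 of its 5 coding genes were zinc finger genes. The block chr19:51852001-53463000 spanned 1611 kb with 747 kb common in 39 stretches, the most of any block. It held 45 coding genes, of which 36 were zinc finger genes. The block chr20:10677001-11548000 spanned 871 kb with 674 kb common and held no coding gene. Its common length lay in 22 stretches, fewer and longer than those of the block on chromosome 19.

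Coding genes held less of the mark than the space between genes. Coding gene bodies make up 43.0% of the genome counted and held 23.6% of the common bins. Intergenic bins, which lie in no annotated gene of any type, make up 42.7% and held 55.3%. In DMSO replicates 1 to 3, peaks covered 2.93, 2.80 and 2.79% of coding gene bodies and 6.59, 6.32 and 6.23% of intergenic bins. In siNC replicates 1 to 4 they covered 3.59, 3.78, 3.80 and 3.61% of coding gene bodies and 7.90, 8.24, 8.31 and 7.86% of intergenic bins. Each library covered more of the intergenic bins than of coding gene bodies, and the ranges of both classes did not overlap. On the log2 scale, coverage of coding gene bodies against the rest of the genome was -1.19 ± 0.0294 (SD, n = 7). It was below 0 in 7 of 7 libraries, with an exact sign-flip permutation p of 0.0156, the smallest possible, and an adjusted p of 0.0215 over 11 location measures. This and all later sign-flip p-values measure only the spread between libraries of the same cell line. They do not compare the placement of peaks with a random one. Intergenic bins were at 0.69 ± 0.00492 and lncRNA genes outside coding genes at 0.69 ± 0.0331, both above 0 in 7 of 7 libraries with the same exact p. Pseudogenes and other genes outside both were at 0.09 ± 0.0176, also with the same exact p. Coding genes of 500 kb or more were at -1.09 ± 0.138, below 0 in 7 of 7 libraries with the same exact p. Of such long genes, 1.21% of the length was common.

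By gene type, lncRNA genes had more of their length in common bins than coding genes. For lncRNA genes 4.09% of the length was common, for transcribed pseudogenes 3.20%, for pseudogenes 2.76% and for coding genes 1.61%. Here a gene of any type counted with at least 200 bp of its own span covered, or with less where the gene itself is shorter. By this count 3712 of 58414 genes (6.35%) were marked in all 7 libraries and 48840 (83.6%) in none. By that count lncRNA genes were at 8.58%, coding genes at 7.69%, pseudogenes at 3.38%, miRNA genes at 1.36% (26 of 1911) and tRNA genes at 0.943%. The types differ in length, with a median of 24.5 kb for coding genes, 9.13 kb for lncRNA genes and 0.643 kb for pseudogenes, and a longer gene has more chances to touch a peak. The lncRNA gene with the longest common stretch was LINC00578 on chromosome 3 with 189 kb, followed by CASC8 (159 kb), CASC21 (148 kb), LOC101927118 (99.0 kb) and LOC105376235 (76.1 kb). CASC8 and CASC21 overlap each other, so they share most of that length. The pseudogenes were led by BAGE2 on chromosome 21 with 77.5 kb, OFCC1 (53.0 kb), ABCA11P (48.8 kb), UBBP4 (28.0 kb) and TEKT4P2 (25.8 kb). ABCA11P lies inside ZNF721, and their marks cannot be told apart.

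A coding gene was called marked in a library when at least 200 bp of the gene, with 2 kb added at either end, lay under peaks. The covered places can differ between libraries, so a gene marked in all of them need not hold a common bin. By this rule 1668 of 19821 coding genes (8.42%) were marked in all 7 libraries and 15787 (79.6%) in none, with 280 marked in 6. Single libraries marked 2306 to 2385 genes in DMSO and 3146 to 3260 in siNC. The 10 coding genes with the longest common stretch inside their span were CSMD3, CLDN16, ZNF718, ZNF91, NRG1, ZNF567, ZNF678, SHOC1, PIEZO2 and ZNF141. CSMD3, a very long gene for a membrane protein with CUB and sushi domains, had a stretch of 112 kb. Its covered length was 200, 226 and 188 kb in DMSO and 363, 408, 430.0 and 381 kb in siNC, so the groups did not overlap. CLDN16, a claudin of tight junctions in the kidney, had 107, 110 and 104 kb covered in DMSO and 86.6, 81.6, 86.6 and 86.6 kb in siNC, of a span of 122 kb. NRG1, a ligand of ERBB receptors, had 189, 180.0 and 179 kb in DMSO and 153, 157, 173 and 151 kb in siNC. CLDN16 and NRG1 were covered over a longer length in every DMSO than in every siNC library. How many of all coding genes separate the groups in either direction was not counted. PIEZO2, a mechanically gated ion channel, had 190.0, 193 and 191 kb in DMSO and 117, 118, 120.0 and 126 kb in siNC. Among the zinc finger genes of this group, ZNF141 was covered over its entire 47.1 kb in all 7 libraries and ZNF567 over 55.6 to 60.6 of 60.6 kb, while ZNF678 ranged from 82.1 to 114 of 116 kb.

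C2H2 zinc finger genes, which encode DNA-binding proteins that in large part carry a KRAB domain and repress retroelements, were marked far more often than coding genes at large. In all 7 libraries 283 of 601 (47.1%) were marked and 214 (35.6%) were marked in none. Single libraries marked 328, 321 and 329 of them in DMSO and 351, 359, 356 and 354 in siNC. The siNC counts were higher without overlap, as were those of all coding genes (2306 to 2385 in DMSO and 3146 to 3260 in siNC). Of the length of these genes 16.7% was common, against the 1.61% given for all coding genes. ZNF91, a repressor of SVA elements, was covered over 82.5, 80.5 and 81.5 kb in DMSO and 73.5, 72.5, 73.5 and 74.5 kb in siNC, of 90.5 kb. ZNF678 was covered over 93.4 ± 13.2 kb (SD, n = 7) of 116 kb, ZNF718 over 74.0 ± 2.34 kb of 77.8 kb and ZNF568 over 62.0 ± 6.21 kb of 81.6 kb. The longest of the members without a peak in any library were ZNF385D (961 kb), ZNF536 (488 kb) and ZNF407 (468 kb). Zinc finger genes also made up 51 of the 100 coding genes that were covered from end to end in all 7 libraries, and 133 of the 250 with at least 50% of their span common. The list holds 601 of the 19821 coding genes. Cover from end to end also depends on the span, which ran from 0.09 to 47.1 kb among the 100.

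The members on chromosome 19, where most of the large zinc finger gene clusters lie, were marked most often. There 175 of 263 (66.5%) were marked in all 7 libraries, against 108 of 338 (32.0%) on the other chromosomes. The other coding genes of chromosome 19 were at 28 of 1147 (2.44%), below the 1357 of 18073 (7.51%) of other coding genes elsewhere. Neighbouring zinc finger genes can share a stretch, so the genes are not independent of each other. In single libraries, 76.3 ± 0.928% of the zinc finger genes on chromosome 19 were marked (SD, n = 7) and 4.21 ± 0.365% of its other coding genes.

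Gene length told the classes apart as well. Among other coding genes the share marked in all 7 libraries went from 2.41% of those under 10 kb to 33.1% of those of 300 kb or more, while the share of their length that was common went only from 0.855% to 1.40%. Among zinc finger genes the share marked was 21.8% under 10 kb, 47.9% from 10 to 30 kb and 60.7% from 30 to 100 kb, and the share of length was 17.8, 29.3 and 23.3%. It was 30% for the 30 members of 100 to 300 kb, with 5.08% of their length. The zinc finger genes most often marked were therefore of middle length.

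Zinc finger genes were covered more often towards their 3′ end, and other coding genes, at a far lower level, towards their 5′ end. The strand was known for genes in the promoter table, and the span was cut into 10 equal parts and the bin at the middle of each part was read in 440 zinc finger and 11111 other coding genes of 10 kb or more. The finger repeats of these proteins are usually encoded in a single long exon at the 3′ end. In the first part of zinc finger genes, 31.8, 28.6 and 31.6% were covered in the DMSO libraries and 24.5, 24.8, 24.5 and 25% in the siNC libraries. In the last part 43.0, 40.2 and 42.7% were covered in DMSO and 44.5, 47.3, 45 and 45.9% in siNC. The last part was higher in 7 of 7 libraries, by 16.8 ± 5.23 percentage points (SD, n = 7). The zinc finger list was trimmed after counts were seen, so the difference carries no test. Common bins covered 17.7% of first and 33.9% of last parts. On chromosome 19 the difference was 25.5 ± 8.88 points over 200 genes and on other chromosomes 9.58 ± 2.28 points over 240 genes, both higher in 7 of 7 libraries. In other coding genes, 2.82 ± 0.0969% of first and 1.87 ± 0.122% of last parts were covered. The last part was lower in 7 of 7 libraries, by -0.959 ± 0.202 points.

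**Figure D2:**
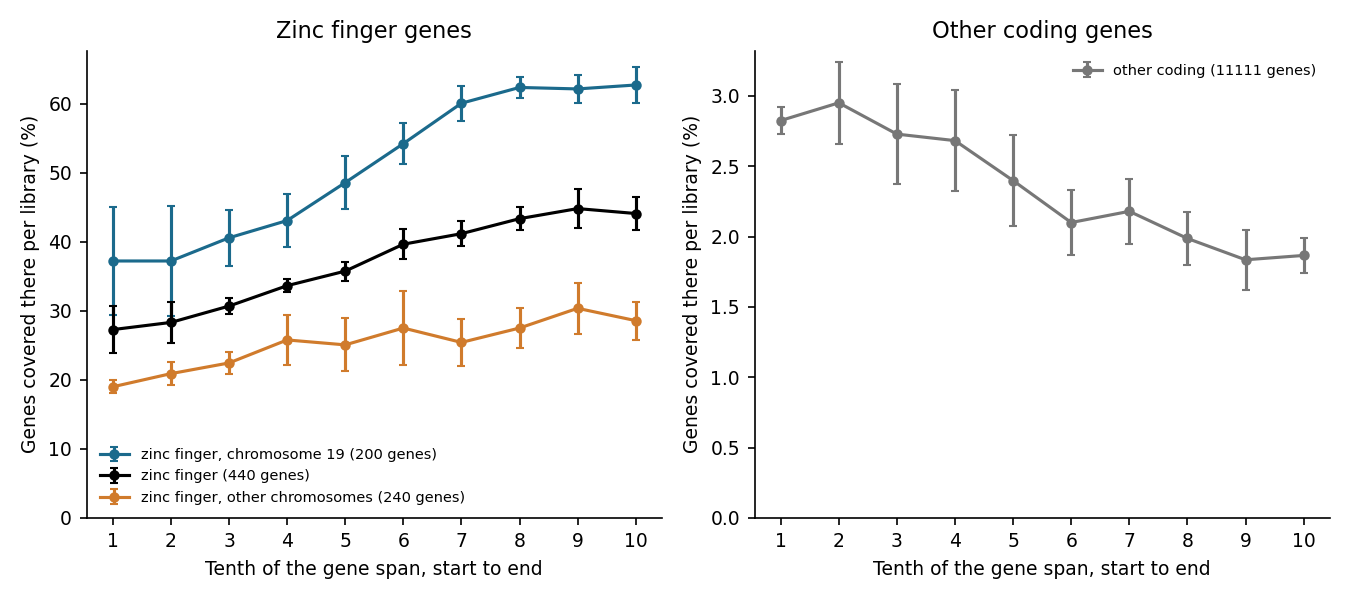
Percent of genes covered at the middle of each of 10 equal parts of the gene span, from the annotated start to the end, as mean of the 7 libraries with SD as bars. Zinc finger genes (left; all 440, the 200 on chromosome 19 and the 240 elsewhere) go up from 27.3% to 44.1% for all 440, while the 11111 other coding genes (right, with its own scale) go down from 2.82% to 1.87%.

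Promoters were read as windows of 300 bp, so their counts cannot be set against those of whole genes. Of 15812 coding genes with a promoter of 300 bp in the RefSeq table, 318 (2.01%) had it covered over at least 200 bp in all 7 libraries and 14779 (93.5%) in none. Zinc finger genes had 80 of 506 promoters (15.8%) covered in all 7 libraries and other coding genes 238 of 15306 (1.55%). Among zinc finger genes marked in all 7 libraries, 66 of 242 (27.3%) had an uncovered promoter. Among other coding genes marked in all 7 libraries this was so for 667 of 1114 (59.9%).

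Covered promoters were less often rich in CG dinucleotides than uncovered ones. A promoter was called CpG-rich with at least 50% GC and an observed over expected CpG ratio of at least 0.6. Over all coding genes, 47.5 ± 1.76% of covered and 64.1 ± 0.0443% of uncovered promoters were CpG-rich per library (SD, n = 7). The difference of -16.6 ± 1.79 percentage points was below 0 in 7 of 7 libraries, with an exact sign-flip permutation p of 0.0156. The 238 promoters of other coding genes covered in all 7 libraries had a median GC of 49.5% and a median CpG ratio of 0.361, and 36.6% were CpG-rich. The 14477 uncovered ones had medians of 63.3% and 0.768, and 64.2% were CpG-rich. Per library, the difference in CpG-rich share was -24.6 ± 1.86 percentage points (SD, n = 7), below 0 in 7 of 7 libraries. For zinc finger genes the 80 covered promoters had medians of 61.0% GC and 0.817, and 81.2% were CpG-rich, and the 302 uncovered ones had 63.3%, 0.822 and 79.1%. The difference per library was -0.101 ± 2.63 points, below 0 in 5 of 7 libraries. The hexamer TATAAA, searched on both strands of the 300 bp, occurred in 21.4% of covered and 9.41% of uncovered promoters of other coding genes, in 3.75% and 2.32% of those of zinc finger genes, and in 9.64% of all promoters. A match is a string of letters and no evidence of a working TATA box.

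Other gene families were marked unevenly, and several clustered families of epithelial or secreted proteins stood above the 8.42% of all coding genes. Clustered serpins, which encode protease inhibitors, had 10 of 23 members (43.5%) marked in all 7 libraries and 8 in none. SERPINB7 was covered over 38.9, 37.9 and 38.9 kb in DMSO and 40.9, 40, 40 and 40.9 kb in siNC, of 52.3 kb, and SERPINA3 over 10.6 kb in each library. Without the 2 kb flanks the serpin share was 26.1%. In the epidermal differentiation complex on chromosome 1, a cluster of genes for the outer layer of squamous epithelia, 13 of 62 (21.0%) were marked in all 7 libraries and 27 in none. SPRR2G, which encodes a small proline-rich protein of the cornified envelope, was covered over 53.4, 51.4 and 50.4 kb in DMSO and 41.0, 42.0, 42.0 and 42.0 kb in siNC, of 53.7 kb. FLG, which encodes filaggrin, and S100A8 had no peak in any library. Single DMSO libraries marked 24 to 28 genes of this complex and siNC libraries 17 to 21, with no overlap. Among all coding genes the direction was the opposite, with 11.6 to 12.0% marked in DMSO and 15.9 to 16.4% in siNC libraries.

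Keratin genes, which encode the intermediate filaments of epithelia, were marked in all 7 libraries for 8 of 55 (14.5%), and 33 had no peak. The hair keratin genes KRT34 (6.15 kb) and KRT39 (8.53 kb) were covered from end to end in every library. KRT5, KRT14 and KRT6A, the keratins of stratified squamous epithelium, and KRT8 had no peak in any library. Keratin-associated protein genes of hair were at 15 of 94 (16.0%), and the named members KRTAP4-6, KRTAP29-1, KRTAP1-1, KRTAP2-3 and KRTAP17-1 lie on chromosome 17 and were fully covered in each library. Without flanks the keratin share was 9.09% and that of keratin-associated proteins 10.6%. Both families had more marked members in every DMSO library (16 to 18, and 20 to 23) than in any siNC library (11 to 13, and 15 to 16). All coding genes went the other way, with 11.6 to 12.0% marked in DMSO and 15.9 to 16.4% in siNC libraries.

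Chemokine genes were marked in all 7 libraries for 9 of 46 (19.6%), and 30 had no peak. CXCL10 and CXCL11, interferon-induced ligands that attract T cells, were covered from end to end in every library (2.38 and 2.39 kb). CXCL9 beside them was covered over 4.51, 5.51 and 6.24 kb in DMSO and 0, 5.51, 6.24 and 6.24 kb in siNC, so siNC replicate 1 had a peak only in its flank. CCL28, an epithelial chemokine, had 53.4, 48.4 and 46.4 kb in DMSO and 25, 26.0, 24.0 and 25 kb in siNC. Interferon-stimulated genes were at 10 of 55 (18.2%), with 35 without a peak. SAMD9, an antiviral factor, was covered over 18.0 of 18.5 kb in each library, and DDX60, RIGI and HERC6 had no peak. Clustered protocadherins, cell surface adhesion proteins of neurons, had 18 of 53 (34.0%) marked, but their spans overlap and all 18 lie over 5 stretches. The named marked members were of the gamma cluster (PCDHGA1 over 43.8 ± 12.8 kb of 182 kb; SD, n = 7), and PCDHA1, PCDHA2 and PCDHA3 had no peak.

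Enzymes of the UGT and CYP families were at 5 of 76 (6.58%), with UGT2B15 covered over 23.4 ± 1.17 of 24.1 kb (SD, n = 7). Ion channel genes were at 18 of 162 (11.1%), led by KCNU1 with 81.1, 82.1 and 79.1 kb in DMSO and 43.1, 42.1, 40.1 and 41.1 kb in siNC. Cadherins were at 2 of 23 (8.70%), CDH18 and CDH26, while CDH12, also of more than 1 Mb, had no peak. All coding genes were at 8.42%. Outside the zinc finger list, coding genes of 30 to 100 kb were at 7.59% and those of 100 to 300 kb at 16.9%. The median span was 66.1 kb for ion channel genes and 140 kb for cadherins. Imprinted genes were at 3 of 34 (8.82%): KCNQ1, ZFAT and DDC. KCNQ1, which encodes a potassium channel, was covered over 41.0, 38.0 and 39.0 kb in DMSO and 50, 51.0, 52.0 and 45 kb in siNC, of 404 kb. Olfactory receptor genes, which are silent outside sensory tissue, were at only 4 of 389 (1.03%), and 362 had no peak. Taste receptors were at 1 of 24 (4.17%). Without flanks the olfactory share was 0.257% and no taste receptor was marked in all 7 libraries. Olfactory receptor genes are short, with a median span of 2.996 kb. Coding genes under 10 kb outside the zinc finger list were at 2.41% marked in all 7 libraries and 92.7% without a peak, close to the 93.1% of olfactory receptors.

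No HOX gene was marked in any library (39 of 39 without a peak) and 84 of 85 histone genes had none. Over all coding genes 79.6% had none, and 92.7% of those under 10 kb outside the zinc finger list. HOX and histone genes are short, with median spans of 3.79 and 0.510 kb. Ribosomal protein genes were at 3 of 82 (3.66%), of which only RPL39L was covered over more than 1.22 kb of its span in any library. Genes of DNA replication and mitosis were at 2 of 43 (4.65%). These were CDK1, the kinase that drives mitosis, with 9.67 to 12.7 of 16.5 kb covered, and RFC3, a clamp loader subunit, with 5 to 20.9 kb of 159 kb. The methylation and heterochromatin machinery was at 1 of 33 (3.03%), EHMT1, a methyltransferase for lysine 9 of histone H3, over 7 to 18.0 kb of 217 kb. KMT5A, KMT5B, KMT5C, SUV39H1, SUV39H2, TRIM28, CBX1, CBX3, CBX5, HP1BP3, ATRX, DAXX and LBR had no peak in any library. SETDB1, a further H3 lysine 9 methyltransferase, had none in DMSO and 8, 6.00, 6.00 and 5 kb in siNC.

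Of the squamous epithelial genes 4 of 33 (12.1%) were marked in all 7 libraries, beside 8.42% of all coding genes, among them TP63, EGFR and KLF5. TP63, a transcription factor that defines squamous epithelium, was covered over 230, 225 and 199 kb in DMSO and 113, 121, 122 and 123 kb in siNC, of 301 kb. Its covered length was higher in every DMSO library than in any siNC library. Over the whole lists, peaks of 50 kb or more held 29.7 to 32.3% of the covered length in DMSO and 13.7 to 14.1% in siNC. How many of all coding genes separate the groups in this way was not counted. EGFR and KLF5 had at most 11 kb covered. In siNC replicate 4 EGFR had a peak only in its flank, and no part of its span was common. EPCAM, CDH1 and SFN had no peak. Among markers of other cell types 1 of 23 (4.35%) was marked in all 7 libraries, ACTA2 of smooth muscle. PTPRC of leukocytes had peaks in DMSO only (7, 19 and 5 kb), and PECAM1 of endothelium in siNC only (5, 9, 7 and 7 kb). VIM, COL1A1, CD3E and LYZ had no peak. A peak of this mark does not measure expression, so these genes cannot check the identity of the cells.

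Several of these shares depended on which libraries had to agree. With the 3 DMSO libraries alone, the share was 18.2% for squamous epithelial genes, 23.6% for keratins, 32.3% for the epidermal differentiation complex, 14.5% for UGT and CYP enzymes and 8.70% for markers of other cell types. With the 4 siNC libraries alone, it was 21.2% for squamous epithelial genes, 29.1% for interferon-stimulated genes, 21.7% for cadherins, 14.7% for imprinted genes, 16.7% for ion channels, 17.4% for markers of other cell types and 6.06% for the machinery. Olfactory receptors were at 1.80% with DMSO alone and 3.86% with siNC alone, and taste receptors at 12.5% with siNC alone. Single groups also marked more of all coding genes, 9.88% with DMSO alone and 13.9% with siNC alone. Without DMSO replicate 3 the cadherin share was 13.0%. Without flanks chemokine genes were at 13.0% and ribosomal protein genes at 1.22%, and with bins common to all libraries replication and mitosis genes were at 2.33%.

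**Figure D3:**
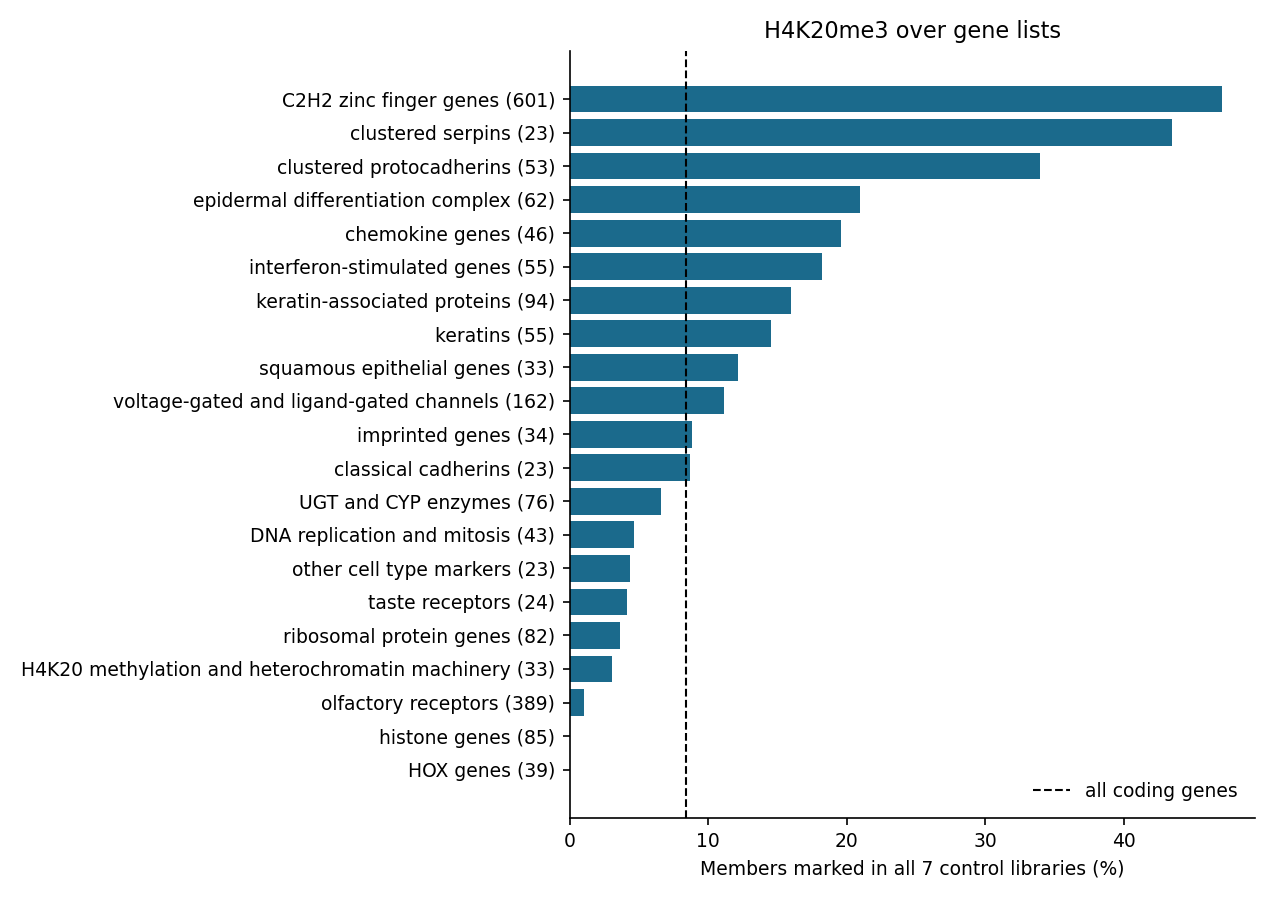
Percent of the members of each gene list marked in all 7 control libraries, with the number of members in parentheses. The dashed line is the 8.42% of all coding genes; zinc finger genes (47.1%) are highest and HOX and histone genes are at 0.

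The chromosomes differed in their share of common bins, from 1.14% of chromosome 16 and 1.37% of X to 6.84% of chromosome 19. Chromosomes 21 (5.11%), 7 (4.67%), 20 (4.56%), 8 (4.09%) and 13 (3.88%) followed. In single libraries 11.1 to 12.6% of chromosome 19 was covered, which on the log2 scale was 1.05 ± 0.223 against the rest (SD, n = 7; above 0 in 7 of 7 libraries; exact sign-flip permutation p = 0.0156, adjusted 0.0215). Chromosome X was at -1.24 ± 0.0469, below 0 in 7 of 7 libraries with the same exact p. On chromosome 19, 66.5% of the common bins lay in zinc finger genes or within 2 kb of them. Outside these genes its common share was 2.69%, and chromosomes 21 (5.12%), 20 (4.58%) and 7 (4.56%) were then highest. Chromosome 16 had 16.5% of its common bins in zinc finger genes, and its longest uncovered place with coding genes, chr16:15985001-22062000, ran over 6.08 Mb and 52 coding genes.

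The widest common stretch of chromosome 19 was 141 kb and held ZNF614, ZNF432, ZNF841, ZNF616 and ZNF836. That of chromosome 16 was 45 kb and held ZFP90, also a zinc finger gene. On chromosomes 20 (145 kb), 21 (133 kb), 13 (90 kb) and 14 (74.0 kb) the widest stretch held no coding gene.

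Across the 23 chromosomes, the common share and the number of coding genes per Mb had a Pearson r of 0.34 and a Spearman rho of -0.18. Without chromosome 19 they were -0.37 and -0.35, so the positive r rested on that chromosome. The chromosomes share the same libraries and are described here without a test.

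**Figure D4:**
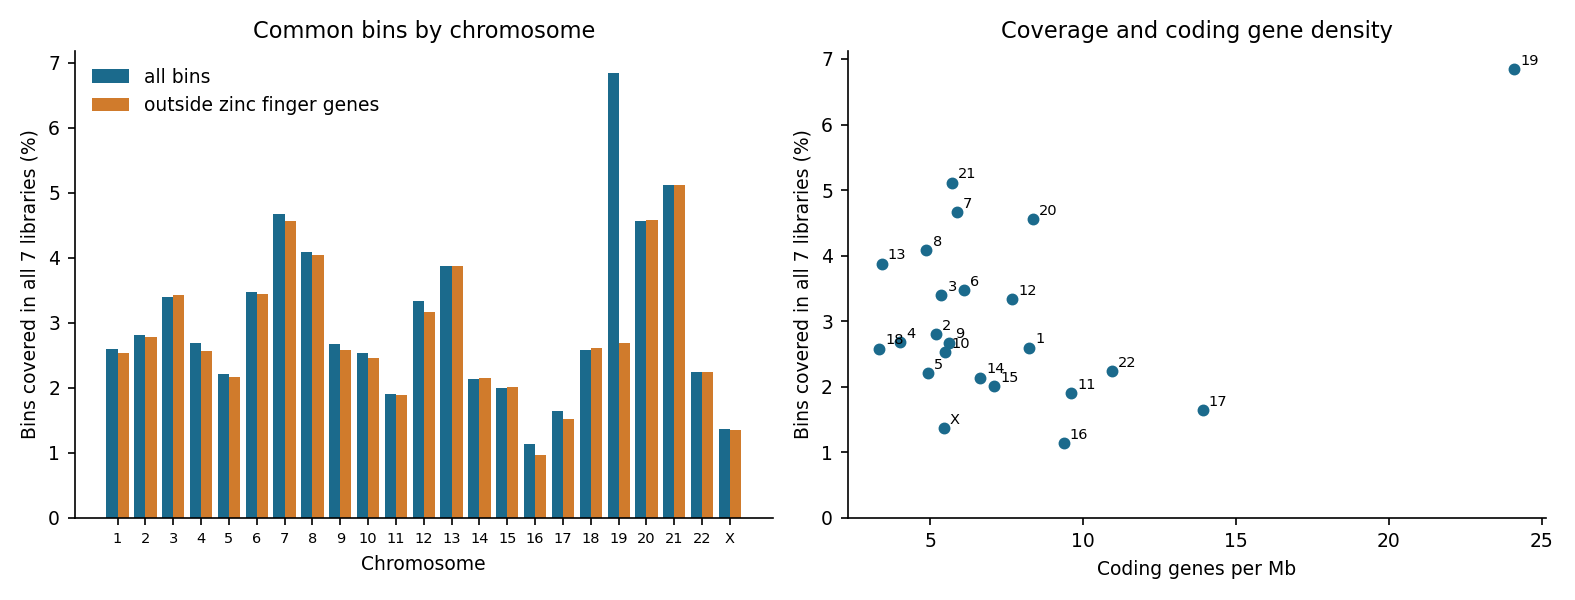
Percent of 1 kb bins covered in all 7 libraries by chromosome (left), over all bins (blue) and outside zinc finger genes with 2 kb on both sides (orange), and the same percent against coding genes per Mb (right). Chromosome 19 is at 6.84% and falls to 2.69% outside zinc finger genes.

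In 1 Mb windows, coding gene density around common and uncovered bins was nearly the same over all bins. It was lower around common bins outside zinc finger genes, and the result varied with the window and the bins counted. The 1 Mb window centred on a common bin held 6.72 coding genes per Mb on average and that on an uncovered bin 6.75, a ratio of 0.996, with medians of 4.0 for both. Without chromosome 19 the means were 5.93 and 6.42, a ratio of 0.924, and outside zinc finger genes 5.88 and 6.71, a ratio of 0.877. The ratio turned above 1 with a 5 Mb window (1.03), with all annotated genes in place of coding genes (1.09) and in the DMSO libraries alone (1.01). With a 100 kb window it was 0.758, so close by, common bins had fewer coding genes. Per library, the density ratio on the log2 scale was -0.07 ± 0.0746 (SD, n = 7), with an exact sign-flip permutation p of 0.0781 (adjusted 0.0859). It was below 0 in 6 of 7 libraries. Without chromosome 19 it was -0.14, and without stretches of at least 1 Mb that hold neither gene nor peak -0.13, each with an adjusted exact p under the threshold of 0.05 (0.0195 and 0.0191). Leaving out DMSO replicate 3 gave -0.09 with an adjusted exact p of 0.0382.

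By class of density, the common share was highest in between. It was 2.06% of bins with no coding gene in the window, 3.04% with 1 to 3, 3.31% with 4 to 9, 2.71% with 10 to 19 and 2.78% with 20 or more. In the densest class it was 6.51% on chromosome 19 and 1.88% without it, and 1.54% outside zinc finger genes. Bins in the densest class were below the rest in 7 of 7 libraries, at -0.27 ± 0.128 on the log2 scale (SD, n = 7; exact sign-flip permutation p = 0.0156, adjusted 0.0215). Bins with no coding gene in the window were at -0.32 ± 0.279, below 0 in 6 of 7 libraries (exact p = 0.0312, adjusted 0.0382). That value turned to 0.07 (adjusted exact p = 0.550) without the gene- and peak-free stretches of at least 1 Mb, and it no longer passed the threshold when any single library other than siNC replicate 3 was left out, or with peaks of 10 kb or more. The outer 1 Mb of chromosomes was at 0.06 ± 0.146 (exact sign-flip permutation p = 0.312), above 0 in the 3 DMSO libraries and below 0 in the 4 siNC libraries. Without chromosome 19 the outer 1 Mb turned to -0.13 (adjusted exact p = 0.0312).

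**Figure D5:**
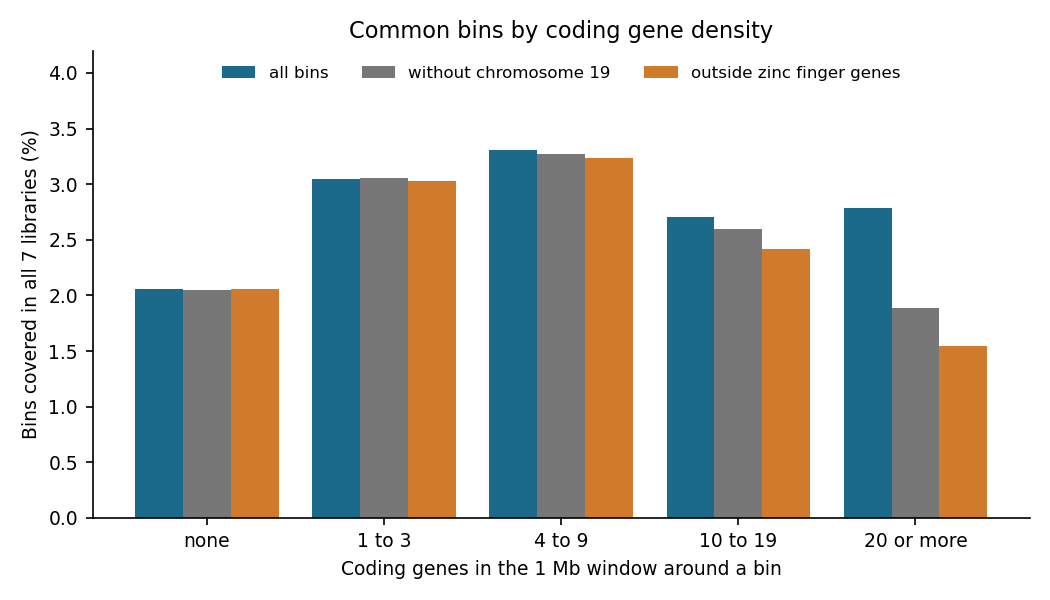
Percent of 1 kb bins covered in all 7 libraries by the number of coding genes in the 1 Mb window around the bin, for all bins (blue), without chromosome 19 (grey) and outside zinc finger genes (orange). In the class of 20 or more genes the percent goes from 2.78% to 1.88% without chromosome 19 and 1.54% outside zinc finger genes.

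The 3 longest uncovered places held no coding gene. The longest, chr1:125169001-143536000, spanned 18.4 Mb with no coding gene, and only 0.237 Mb of it lay outside stretches of at least 1 Mb with neither gene nor peak. Chromosome 9 had one of 17.5 Mb with no coding gene and chromosome 16 one of 10.4 Mb. These lie at or beside centromeres, and whether reads can be placed there was not analysed here. The fourth, on chromosome X, spanned 6.86 Mb with 10 coding genes: UBQLN2, NBDY, SPIN3, SPIN2B, FAAH2, SPIN2A, ZXDB, NLRP2B, ZXDA and SPIN4. The fifth was the place of 52 coding genes on chromosome 16, from ABCC1 onwards. Among the next with genes, chr2:75649001-80927000 ran over 5.28 Mb and 9 coding genes, among them CTNNA2, LRRTM4 and the REG3 and REG1 genes, and chr3:64089001-69201000 over 5.11 Mb and 15 coding genes.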

How the data were processed

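The 7 deposited lists give start and end of broad H4K20me3 peaks, and no score, signal or depth, so no interval that needs depth is given. Per the submitters' processing notes, the authors used hg38 with bedtools 2.30.0, Picard 2.27.3, Bowtie and cutadapt 4.4. File labels of the authors say that each library was deduplicated and its peaks were called alone, against an IgG library, that of DMSO cells for DMSO and that of cells with no treatment in its label for siNC. The peak caller is not given in the sources used here. Library kit and cell number come from the labels' protocols (SWIFT Accel-NGS 2S Plus, 500000 cells). All ends lay on a 1000 bp grid, and the narrowest peak was 5 kb.

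Each chromosome was counted in 1 kb bins from its first to its last annotated gene or control peak. Gene spans, types and names came from RefSeq on GRCh38.p14, which holds the hg38 chromosomes. The gene table gives no strand or exons, so exons, introns and UTRs were not analysed here. Strand and promoter sequence came from a table that matched 15812 of 19821 coding genes. It holds no gene of chromosome 8, so the 707 coding genes there are absent from the promoter and gene end results. A gene was marked with at least 200 bp covered, counting 2 kb added at either end. Overlapping and neighbouring genes can share a peak. Group differences were tested by exact permutation and location measures by exact sign-flip permutation over libraries, with Benjamini-Hochberg adjustment and a threshold of 0.05 (Python 3.11.15, numpy 2.4.6, pandas 2.3.3). The functions were tested on simulated data. Members and the 21 gene lists were chosen with earlier results of these data known, and some list definitions were trimmed after counts were seen, so lists and the zinc finger class carry no test. Named genes were the 10 with the longest common stretch, those of the 5 widest common and 5 longest uncovered stretches, per list up to 5 marked members with most covered length and up to 3 unmarked with the longest span, and fixed machinery and marker genes. Some genes under this rule are not reported here.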

Additional observations from a re-analysis of the deposited data

Results flagged for a closer look

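The 4 siNC libraries were compared for 41 measures, and in 9 of them a single library stood apart from the other 3 by Dixon's criterion. Chance gives this in about 1 of 20 groups, and in counts a difference of 1 among tied values is enough. The widest peak was 451 kb in siNC replicate 3 and 407 to 408 kb in the others. Coverage of intergenic bins against the rest was 0.69 (log2) in siNC replicate 1, as 0.6927 against 0.682379 to 0.683684. The number of marked genes was 22 against 21 for clustered protocadherins, 16 against 15 for keratin-associated proteins, 11 against 10 for chemokine genes, 9 against 10 for UGT and CYP enzymes, 2 against 3 for DNA replication and mitosis and 7 against 8 for squamous epithelial genes. For markers of other cell types it was 8 in siNC replicate 2 against 6 in the others.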

How the results depend on the processing

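Leaving out single libraries kept the direction of each library difference, but 2 against 4 or 3 against 3 libraries cannot pass the threshold. The siNC minus DMSO difference then ranged from 5377 to 5682 peaks, from 0.33 to 0.36 in log2 covered length and from -147 to -126 peaks of 50 kb or more. No pairing by replicate number was visible. The deviations of same-numbered libraries correlated at -0.00427, -0.0156 and -0.0656, and those of other DMSO and siNC pairs at -0.0519 to 0.0746. These values cannot show whether the libraries were prepared in pairs. With the replicate block the differences were 5682 peaks, 0.35 and -136, each with an exact p of 0.25, the smallest that 3 pairs allow. Group medians gave 5429 peaks, 0.35 and -132 (adjusted exact p = 0.143 for each).

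With the DMSO libraries alone the common share of bins was 3.97%, the uncovered share 93.9%, the density ratio 1.01 and the marked share of zinc finger genes 50.1%. With the siNC libraries alone the common share was 4.94%, the uncovered share 92.1% and the marked share 13.9% of coding and 56.9% of zinc finger genes. Peaks of 10 kb or more gave an uncovered share of 93.1%, a median stretch of 14 kb, 5.07% of coding genes marked and a median CpG ratio of 0.571 in covered promoters, against 0.609. The same number of peaks in each library left 91.9% uncovered. The common share was 2.08% in 5 kb bins, and joining stretches within 5 kb gave a median of 10 kb. Without chromosome 19, 32.0% of zinc finger genes were marked, the density ratio was 0.924 and the outer 1 Mb turned to -0.13. The ratio was 0.758 with a 100 kb window, 1.03 with 5 Mb and 1.09 with all annotated genes. Without stretches of at least 1 Mb holding neither gene nor peak, bins with no coding gene nearby turned to 0.0736. Without zinc finger genes, promoters covered in all 7 libraries had medians of 0.361 and 49.5% GC in place of 0.609 and 54.0%. Fewer libraries must leave more common bins, and wider peaks fewer; the cause of other changes was not tested.

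The higher coverage at the 3′ end of zinc finger genes stayed at 15.9 to 17.8 points without single libraries, at 16.0 with peaks of 10 kb or more and at 17.6 in genes of 30 kb or more, settings chosen after seeing the data. The lists have no depth, so a place without a peak may hold signal under the calling threshold.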

Other observations

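Of 1911 miRNA genes, 26 lay under peaks in all 7 libraries, chosen for mention after their values were seen. MIR944 lies inside TP63, MIR571 inside ZNF141, MIR199A2 inside DNM3, MIR561 inside GULP1 and MIR583 inside CAST, and their marks cannot be told apart from those of the host genes. Of the 29 annotated rRNA genes outside the mitochondrion, 0 were marked in all 7 libraries and 18 in none. Single libraries marked 21.2 ± 14.6% of them (SD, n = 7). Copies of rRNA genes are near-identical, so the placing of reads among them is uncertain.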
